A study of Malus domestica with 6 samples.

Results

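A set of 71 abundant transcripts was far higher in the pulp of Granny Smith apples than in that of Jonagold apples. These genes were selected on measured values from the 46558 genes listed for the fruit pulp of the 2 apple varieties. A gene was taken when its mean level over the 3 Granny Smith libraries was at least 50 FPKM, its mean over the 3 Jonagold libraries was at least 0.05 FPKM, and the first mean was at least 5 times the second. FPKM is the number of sequenced fragments counted on a gene, scaled to the gene's length and to a factor for the library. Levels of genes of unequal length can thus be set side by side. In the deposited values the library factor differed from one set by the sum of recovered reads, as given under the processing. The 94 genes that the study listed for fatty acid, isoleucine, sesquiterpene and phenylpropanoid metabolism were then set aside. Since both cultivar means chose the members, the difference between the varieties is given below as a description and was not tested.

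Both groups were unbagged fruits of Malus domestica, and RNA was taken from the pulp. Granny Smith is a green-skinned variety and Jonagold a red-skinned variety. Both were grafted on the same rootstock, M26, and harvested fully ripe. The study reported lower internal ethylene in Granny Smith than in Jonagold, and higher firmness, titratable acidity and carbon dioxide production. Ripening state may thus have differed with variety. The study compared their volatile compounds and transcripts, with 3 biological replicates per variety. No bagged, unripe or otherwise treated group served as a further control, so variety and everything else that went with it in the orchard and at harvest cannot be told apart. Each replicate was prepared from several fruits and so stands for a pool of fruits.

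Ripe apple pulp consists mainly of large storage parenchyma cells crossed by vascular strands. Apple is a climacteric fruit, in which a burst of ethylene and of respiration accompanies softening, the loss of starch and acids, and the release of aroma esters. In such a tissue a small number of genes commonly supplies a large part of the messenger RNA, so a change in 1 very abundant transcript can alter the composition of a whole library. In a bulk extract, fewer cells of a type and less RNA per cell cannot be told apart.

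From 17730333 to 17884255 reads were recovered in the Granny Smith libraries, and from 14925509 to 17426834 in those of Jonagold. A recovered read here stands for a counted fragment. The study sequenced paired ends, so these sums cannot be set beside its numbers of mapped reads. The study reported a smaller share of reads mapped to the genome in every Jonagold library than in any Granny Smith library. Mapping thus differed with variety, and its bearing on the levels below was not tested. The FPKM values summed to between 554856 and 599617 in Granny Smith and to between 755644 and 800812 in Jonagold. The mean Jonagold sum was 1.33 times the mean Granny Smith sum, so the ratios on the deposited scale are lower than ratios of shares. The deposited identifiers carry no gene names, and the reference gene table at hand matched none of them, so no member is given a name or a role. For the same reason the labelled tissue was not checked against marker genes.

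Among the 1955 genes that averaged 50 FPKM or more in Granny Smith, 74 passed the ratio of 5, which is 3.79% of them, and 3 of the 74 were set aside with the named genes. MdPD-1 (MD12G1173200), named for pyruvate decarboxylase, which turns pyruvate into acetaldehyde, had 340, 291 and 336 FPKM in the Granny Smith libraries and 51.0, 47.1 and 45.5 FPKM in the Jonagold libraries. MdADH-4 (MD10G1014200), named for alcohol dehydrogenase, which interconverts aldehydes and alcohols, had 49.2, 80.0 and 55.1 FPKM in Granny Smith against 10.7, 4.78 and 6.85 FPKM in Jonagold. MdCXE-2 (MD05G1191100), named for a carboxylesterase, a class of enzymes that hydrolyse esters, had 58.3, 56.03 and 51.9 FPKM against 3.10, 8.08 and 6.64 FPKM. The ratios of means of these 3 genes were 6.73, 8.25 and 9.33, within the range of the 71 members, and none of the 3 enters the counts below. The study's own values for these 3 genes, also given as FPKM, were many times larger. Its levels and those here cannot be set side by side.

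The members stood at very different heights above the selection lines. Their ratios of means ran from 5.06 to 427, with a median of 9.76. The ratio was below 10 for 36 members, from 10 to below 20 for 15, from 20 to below 100 for 11, and 100 or more for 9. Their mean level in Granny Smith had a median of 119 FPKM and their mean level in Jonagold a median of 11.5 FPKM. In Jonagold 6 members had a mean below 1 FPKM, 41 had 10 FPKM or more, and 6 had 50 FPKM or more. Most were thus lower than in Granny Smith and still well detected in Jonagold pulp, and few were near absence. Every member had at least 1 read in every Jonagold library. In all 71 members each Granny Smith library was above each Jonagold library, as was the case for 36.4% of the 1955 genes of at least 50 FPKM. The selection fixed this separation for the most part, and nothing is read from it.

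**Figure D1:**
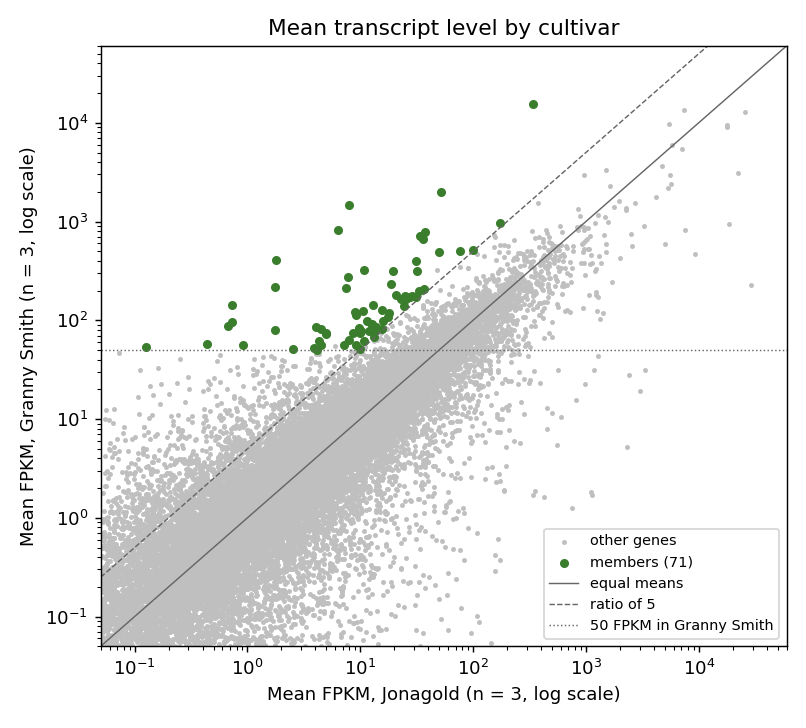
Mean FPKM of each gene in Jonagold (horizontal, log scale) and Granny Smith (vertical, log scale), 3 libraries each, for genes of at least 0.05 FPKM in both. The 71 members (green) lie above the line of 50 FPKM and on or above the line of a ratio of 5, and MD09G1256000 stands highest, at 15330 FPKM in Granny Smith against 337 FPKM. Grey points inside the same area are genes set aside with the named ones.

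The members, chosen for this contrast, made up 5.48%, 5.73% and 5.25% of the summed FPKM of the Granny Smith libraries, and 0.228%, 0.205% and 0.209% of that of the Jonagold libraries. The mean shares were 5.49 ± 0.242% and 0.214 ± 0.0122% (SD, n = 3 each), a ratio of 25.6. The members are 71 of 46558 genes, and the 3 libraries of each variety gave nearly the same share. Counted as reads, which weigh long genes more, the Granny Smith share was 3.45 ± 0.212% and the Jonagold share 0.168 ± 0.00673% (SD, n = 3 each). In Granny Smith-1 the members took 606499 of 17799700 reads, or 3.41% (95% Wilson interval 3.40% to 3.42%). In Jonagold-1 they took 27064 of 15456939 reads, or 0.175% (95% Wilson interval 0.173% to 0.177%). These intervals cover counting error only.

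A single gene, MD09G1256000 on chromosome 9, held close to a majority of this share. It accounted for 47.7% of the members' mean FPKM in Granny Smith and for 40.0% of their reads. Its own share of the summed FPKM was 2.75%, 2.64% and 2.47% in the Granny Smith libraries, against 0.0482%, 0.0432% and 0.0391% in the Jonagold libraries. The first 3 members together made up 3.21% of the Granny Smith total, the first 10 made up 4.06%, and the other 61 made up 1.42 ± 0.118% (SD, n = 3) against 0.103 ± 0.00499% in Jonagold. Without MD09G1256000 the members' share was 2.87% in Granny Smith and 0.171% in Jonagold, a ratio of 16.8. Each remaining member was itself chosen for a ratio of at least 5, so this value is a description only.

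**Figure D2:**
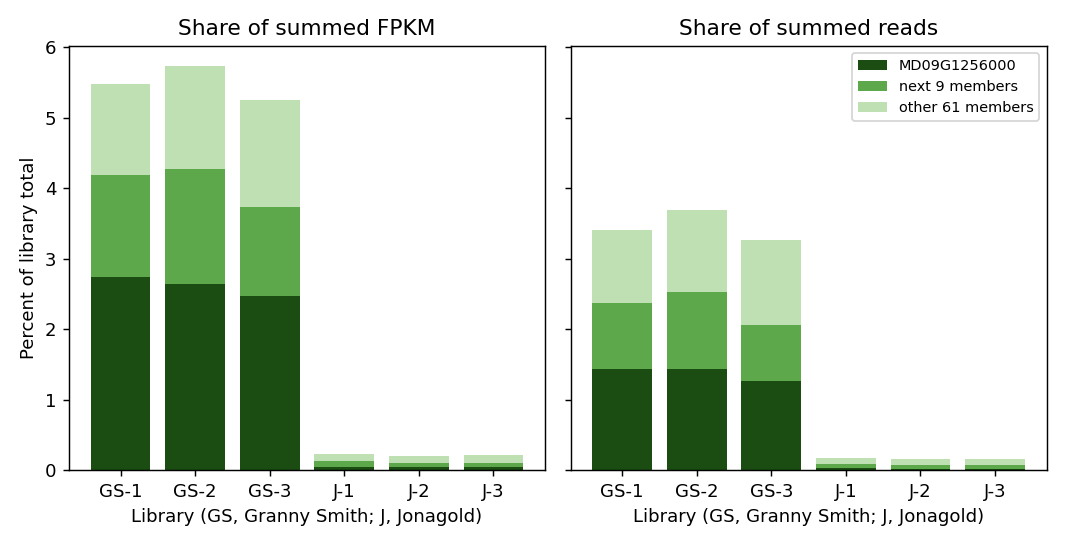
Share of each library total taken by the members, as percent of summed FPKM (left) and of summed recovered reads (right), for 3 Granny Smith and 3 Jonagold libraries. Each bar is divided into MD09G1256000, the next 9 members and the other 61. The FPKM share lay between 5.25% and 5.73% in Granny Smith and between 0.205% and 0.228% in Jonagold.

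The same rule with the varieties exchanged gave a larger set. Of 2176 genes of at least 50 FPKM in Jonagold, 194, or 8.91%, were at least 5 times higher there, and 179 were left after the named genes were set aside. These 179 genes took 18.0 ± 1.67% of the Jonagold FPKM total and 1.62 ± 0.255% of that of Granny Smith (SD, n = 3 each). The Granny Smith set was thus the smaller of the 2 in number and in share on the deposited scale. With equal FPKM totals, the 2 rules gave 107 genes higher in Granny Smith and 132 higher in Jonagold. With each library's own sum of recovered reads as its total they gave 103 and 137, so the gap in number was narrower on both of these scales.

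MD09G1256000, with a length of 779 bases, was the most abundant listed gene in Granny Smith pulp by its mean. Its levels were 16439, 15852 and 13699 FPKM in the Granny Smith libraries and 369, 346 and 295 FPKM in the Jonagold libraries. It ranked first in Granny Smith-1 and Granny Smith-3 and second in Granny Smith-2, and between 224 and 254 in the Jonagold libraries. In Jonagold it was still an abundant transcript, and it had the highest Jonagold mean of all members, at 337 ± 37.7 FPKM (SD, n = 3). Its ratio of means was 45.5, and its lowest Granny Smith library was 37.1 times its highest Jonagold library. The next listed gene on the chromosome, MD09G1256300, which is no member, had 10101, 9312 and 9984 FPKM in Granny Smith and 6134, 5582 and 4745 FPKM in Jonagold. That gene was higher in Granny Smith by 0.84 on the log2(FPKM + 1) scale (limma, adjusted p = 0.0237), less than the doubling needed for a call. These 2 neighbouring genes thus ranked among the most abundant of the Granny Smith pulp and differed widely in their contrast between varieties. Whether they share sequence, and so reads, was not tested.

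MD11G1003700 came next in Granny Smith, and its mean level there was lower than that of MD09G1256000 by 7.68 times. It had 2132, 2252 and 1607 FPKM in Granny Smith and 56.7, 53.4 and 46.9 FPKM in Jonagold, a ratio of 38.1, on a gene of only 306 bases. MD10G1062300 had 1707, 1658 and 1021 FPKM against 6.85, 7.99 and 9.07 FPKM, a ratio of 183. It was the only one of the 3 members above 1000 FPKM that was low in Jonagold, where it ranked 10138 by its mean, against 22 in Granny Smith. For all 3, Granny Smith-3 was the lowest Granny Smith library, while the Jonagold libraries lay close together.

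The 7 members between 500 and 1000 FPKM fell into steep and shallow contrasts. MD17G1130000 was the steepest, with 673, 976 and 840 FPKM in Granny Smith and 11.8, 4.02 and 3.15 FPKM in Jonagold, a ratio of 131. MD02G1192600 had 627, 1266 and 482 FPKM against 48.4, 27.5 and 36.6 FPKM, and its ratio of 21.1 rested on Granny Smith libraries that differed by 2.63 times. MD09G1127000 had 695, 850 and 610 FPKM against 54.8, 21.1 and 25.02 FPKM, a ratio of 21.3. The Jonagold-1 library was the highest of its variety for these 3 genes, as it was for 45.1% of all members. It stood over 2 times above both others for MD17G1130000 and MD09G1127000. The same held for MD00G1115400, a gene on unplaced sequence, with 594, 696 and 702 FPKM in Granny Smith and 64.4, 25.2 and 17.7 FPKM in Jonagold. Its ratio of means was 18.6.

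The other 3 genes of this range were abundant in both varieties. MD15G1003900 had 1159, 818 and 952 FPKM in Granny Smith and 190, 163 and 167 FPKM in Jonagold, a ratio of 5.64. MD06G1084800 had 535, 610 and 398 FPKM against 113, 95.2 and 89.6 FPKM, a ratio of 5.18. MD06G1160700 had 516, 632 and 375 FPKM against 82.1, 71.9 and 77.8 FPKM, a ratio of 6.57. In these 3 the Jonagold libraries were close to each other and far below every Granny Smith library. The 10 most abundant members had a median ratio of 21.2, and the other 61 had a median of 8.77.

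**Figure D3:**
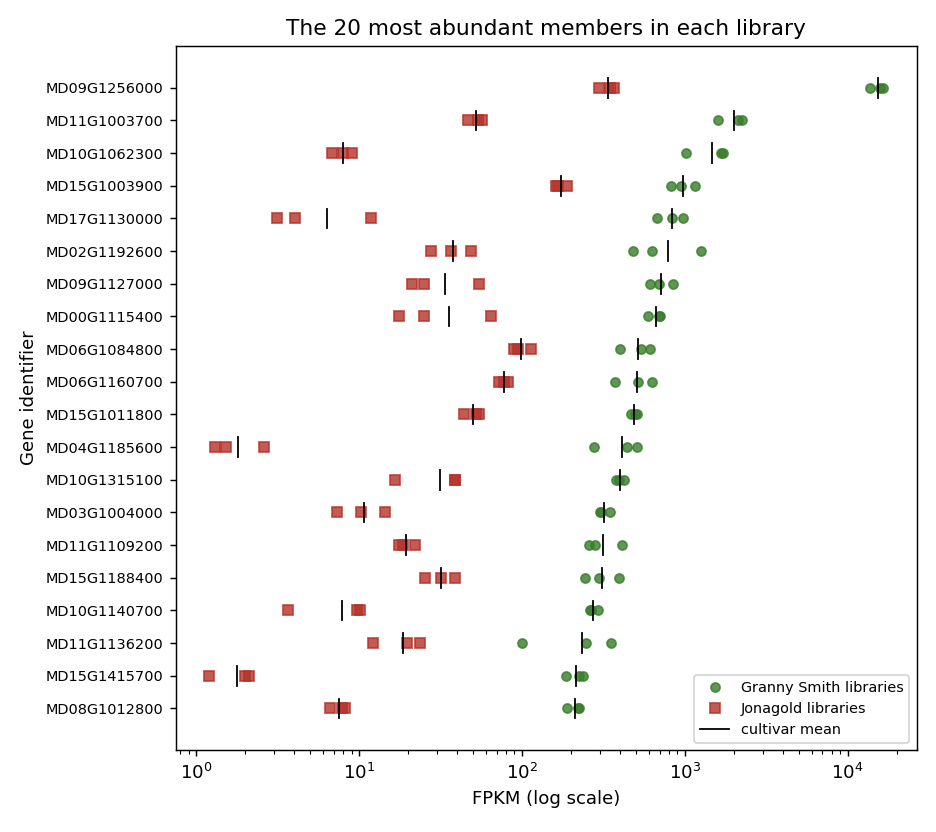
FPKM (log scale) of the 20 members with the highest Granny Smith means in each of 3 Granny Smith libraries (green circles) and 3 Jonagold libraries (red squares), with vertical marks at the variety means. No gene has overlapping varieties, and MD02G1192600 and MD11G1136200 show the widest spread among Granny Smith libraries.

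Members were a larger fraction of the very abundant genes than of the moderately abundant ones. They were 33 of the 1120 genes between 50 and 100 FPKM in Granny Smith (2.95%), 17 of 509 between 100 and 200 FPKM (3.34%), and 11 of 230 between 200 and 500 FPKM (4.78%). Between 500 and 1000 FPKM they were 7 of 67 genes (10.4%), and at 1000 FPKM or more they were 3 of 29 (10.3%). In all, 10 members were among the 100 most abundant Granny Smith genes by mean, and 0 were among the 100 most abundant Jonagold genes. The counts in the upper classes are small, and the trend was not tested because the levels were part of the selection.

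The largest ratios belonged to genes with few Jonagold reads. MD09G1119100 had 44.5, 69.7 and 46.6 FPKM in Granny Smith and 0.273, 0.0485 and 0.0551 FPKM in Jonagold, where these values stood for 5, 1 and 1 reads. Its ratio of 427 has a counting interval from 207 to 1063 when the 7 Jonagold reads are taken as a Poisson count, with the Granny Smith levels held fixed. MD04G1185600 had 277, 443 and 509 FPKM against 1.52, 2.60 and 1.30 FPKM, or 49 Jonagold reads in all. Its ratio was 227 with an interval from 171 to 306. The order of the first 2 by ratio is therefore not settled by the read numbers.

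MD02G1139700 had 138, 121 and 165 FPKM in Granny Smith and 0.860, 1.00 and 0.334 FPKM in Jonagold, from 35 Jonagold reads, a ratio of 193 (139 to 277). MD04G1020100 had 53.6, 70.8 and 49.9 FPKM against 1.06, 0.177 and 0.0669 FPKM, from 16, 3 and 1 reads, a ratio of 134 (86.6 to 219). With MD10G1062300, described above, these were the 5 largest ratios. The 4 further members at 100 or more were MD08G1051400 (132), MD17G1130000 (131), MD16G1009100 (130) and MD15G1415700 (122). All 9 had a Jonagold mean of at most 7.97 FPKM, while their Granny Smith means ran from 53.6 to 1462 FPKM. Since these 9 were picked by their ratio, a Jonagold level far below that of Granny Smith follows from the choice. The values are a description only, and the intervals cover counting error only, not the spread between libraries.

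The smallest ratios lay just above the selection line. MD09G1265200 had 42.5, 61.01 and 48.7 FPKM in Granny Smith and 11.5, 9.54 and 9.05 FPKM in Jonagold, a ratio of 5.06. MD06G1217200 had 76.6, 68.0 and 58.4 FPKM against 3.82, 18.7 and 17.4 FPKM, a ratio of 5.08 that fell to 3.75 without Jonagold-1. Next came MD06G1084800, MD11G1108300 with 75.97, 79.03 and 88.7 FPKM against 19.9, 16.5 and 10.1 FPKM (5.25), and MD08G1002300 with 144, 155 and 222 FPKM against 37.1, 25.9 and 30.6 FPKM (5.57). In each of these the lowest Granny Smith library was between 3.12 and 3.89 times the highest Jonagold library.

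Genes just outside the lines looked much like these. MD03G1085200 had 63.01, 55.4 and 43.7 FPKM in Granny Smith and 10.5, 11.8 and 10.6 FPKM in Jonagold, a ratio of 4.93. MD17G1172100 had 51.2, 48.0 and 62.03 FPKM against 16.6, 8.98 and 7.42 FPKM, a ratio of 4.88. MD05G1336400 had 74.95, 82.7 and 63.02 FPKM against 14.7, 15.6 and 15.3 FPKM, a ratio of 4.83. These 3 passed the level and missed the ratio of 5, and none had a Jonagold library above a Granny Smith library. MD12G1237200 had 39.1, 59.97 and 46.1 FPKM against 3.89, 10.9 and 9.97 FPKM. MD11G1238100 had 53.8, 46.4 and 38.7 FPKM against 6.203, 11.5 and 9.25 FPKM. MD13G1144700 had 38.8, 53.3 and 46.7 FPKM, from 227, 326 and 290 reads, against 0, 1 and 0 reads in Jonagold. These 3 passed the ratio and missed the level of 50 FPKM, with means of 48.4, 46.3 and 46.2 FPKM in Granny Smith. Just inside that level were MD17G1180800, with 42.5, 52.2 and 57.0 FPKM against 3.44, 5.23 and 3.83 FPKM, MD03G1094700, with 60.5, 43.0 and 51.1 FPKM against 3.34, 2.11 and 2.10 FPKM, and MD09G1265200, given above. Since no gap separated members from these genes, the edges of the set are a convention.

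Leaving out single libraries showed which members rest on one of them. Without Jonagold-1, 4 members had a ratio below 5, namely MD06G1217200, MD12G1012300, MD16G1124300 and MD16G1048500. Without any other single library this number was between 1 and 3. When the rule was applied to 2 libraries per variety and read in the remaining pair, it chose 74, 73 or 72 genes. Of these, 67, 65 and 65 were members. Every one of the chosen genes was higher in Granny Smith in the pair that had not been used. A choice at 5 times in replicate pools leaves little room for another outcome, and no share over all abundant genes was computed. Nothing is read from this direction. The ratio in that pair was at least 5 for 59 of 74, 60 of 73 and 57 of 72 genes, with medians of 9.51, 9.55 and 10.4. The lowest ratios were 1.89, 2.77 and 1.998, so membership varied with the libraries.

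The members varied more among the Granny Smith replicates than other abundant genes did. The coefficient of variation (SD over mean) of the 3 Granny Smith libraries had a median of 17.6% over the 71 members and of 10.1% over the 1884 other genes of at least 50 FPKM in Granny Smith. Counting error alone would give a median of 1.77% for the members and of 1.98% for the others. In 9 members, or 12.7%, the highest Granny Smith library was over 2 times the lowest, against 41, or 2.18%, of the other genes. A gene whose mean was lifted by 1 library could enter the set more easily, and the selection used these same libraries, so no test is given for the difference.

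MD10G1332400 had the widest spread, with 54.2, 216 and 261 FPKM in Granny Smith against 28.7, 27.4 and 30.02 FPKM in Jonagold. Its Granny Smith coefficient of variation was 61.4%, and its lowest Granny Smith library was only 1.80 times its highest Jonagold library, the narrowest gap of all members. MD16G1009100 had 30.9, 124 and 108 FPKM against 0.238, 0.989 and 0.801 FPKM, with a coefficient of variation of 56.9%. MD11G1136200 had 101, 351 and 247 FPKM against 12.2, 23.8 and 19.8 FPKM, with one of 54.0%. In all 3 genes Granny Smith-1 was far below both other Granny Smith libraries, and yet above every Jonagold library.

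The same pattern, with both other libraries over 2 times Granny Smith-1, was met in 4 members, the fourth being MD10G1321200 with 72.8, 176 and 176 FPKM. This was 5.63% of the members, against 0.159% of the other abundant genes. The reverse, Granny Smith-1 over 2 times both others, was met in 0 members. Of the 9 members that differed by over 2 times, 6 were highest in Granny Smith-2 and 3 in Granny Smith-3. Over all 71 members, 20 were highest in Granny Smith-1, 30 in Granny Smith-2 and 21 in Granny Smith-3 (28.2%, 42.3% and 29.6%), whereas 47.5%, 42.1% and 10.4% of the other abundant genes were highest in these libraries. The order of the libraries in the members was thus unlike that in the bulk of abundant genes, a difference that was not tested.

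Among the Jonagold libraries the members diverged chiefly in Jonagold-1. In 8 members this library was over 2 times both others, and in 11 both others were over 2 times this library, or 11.3% and 15.5% of the members. Of the 1884 other abundant genes, 0.743% and 1.75% showed these patterns. The corresponding counts of members for Jonagold-2 were 0 and 1, and for Jonagold-3 they were 0 and 2. Jonagold-1 was simply the highest Jonagold library, by any margin, for 45.1% of the members and 56.2% of the other abundant genes. The members were lower in Jonagold than the other genes, with a median counting error of 7.09% against 2.39%, and their median coefficient of variation was 28.0% against 10.6%. The part of read numbers in these deviations was not tested further.

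MD05G1042900 had the largest relative spread in Jonagold, with 61.4, 5.57 and 7.31 FPKM from 746, 76 and 88 reads, against 220, 194 and 118 FPKM in Granny Smith. Its coefficient of variation in Jonagold was 128%, and its ratio of 7.15 includes the high Jonagold-1 value. MD04G1020100 and MD09G1119100 followed, with 125% and 102%, both on fewer than 20 reads per library and both highest in Jonagold-1. The other members over 2 times higher in Jonagold-1 were MD17G1130000, MD09G1127000, MD00G1115400, MD11G1108500 and MD11G1108700. In the other direction, MD16G1124300 had 2.51, 18.7 and 32.7 FPKM from 16, 134 and 206 reads, and MD12G1012300 had 13.1, 47.3 and 39.6 FPKM from 108, 436 and 322 reads. Jonagold-1 thus moved both ways among the members, on read numbers that were sizeable for several of them.

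In gene length the members had a median close to that of other abundant genes and lower quartile values. The rule used length only through the FPKM scale. Their lengths recovered from the FPKM values had a median of 1255 bases (quartiles 782 and 1511), against 1300 bases (929 and 1870) for the 1884 other genes. The shortest member was MD06G1124700, at 192 bases, and the longest was MD05G1220800, at 2686 bases. Of the 71 members 25 were shorter than 1000 bases, and the other genes were not counted at this length. The first 2 by level, MD09G1256000 and MD11G1003700, were among these, and FPKM weighs reads on short genes more.

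The members were spread over all 17 chromosomes. Chromosome 11 held 8 of them, chromosomes 10, 15 and 16 held 7 each, chromosome 5 held 6, and 2 lay on unplaced sequence. Chromosomes 1, 7 and 14 held 1 each. Among genes of at least 50 FPKM in Granny Smith, the share that were members ran from 0.820% on chromosome 7 to 6.96% on chromosome 11. The 8 genes of chromosome 11 include a group of neighbouring genes, described next, so they are not 8 separate positions.

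**Figure D4:**
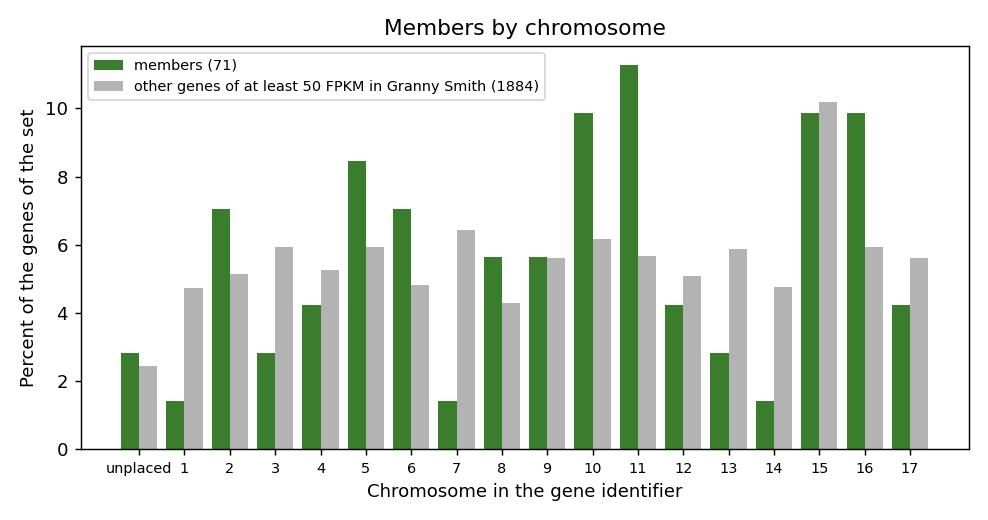
Percent of the 71 members (green) and of the 1884 other genes of at least 50 FPKM in Granny Smith (grey) on each chromosome, taken from the gene identifiers. The highest green bar is chromosome 11, with 8 members or 11.3%, and chromosomes 1, 7 and 14 have 1 member each.

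On chromosome 11, 4 members lay close together in identifier order. MD11G1108300, MD11G1108500 and MD11G1108700 each followed the last with 1 listed gene between them, and MD11G1109200 came 4 listed genes later. MD11G1108500 had 74.3, 82.3 and 68.2 FPKM in Granny Smith and 14.4, 6.81 and 4.40 FPKM in Jonagold. MD11G1108700 had 45.8, 58.2 and 65.7 FPKM against 8.53, 1.56 and 3.42 FPKM. The first 3 genes thus reached similar levels in Granny Smith, and all 3 were highest in Jonagold-1 among the Jonagold libraries. Jonagold-1 was also the highest Jonagold library for 56.2% of the other abundant genes, so nothing is read from this.

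MD11G1109200 stood apart, with 279, 411 and 259 FPKM in Granny Smith and 17.5, 22.1 and 18.6 FPKM in Jonagold. The lengths of the 4 genes were 683, 750, 664 and 639 bases. Of the 6 listed genes between them, 4 were listed at 0 in every library. MD11G1108900 (6.32 FPKM in Granny Smith, 4.31 FPKM in Jonagold) and MD11G1109000 (3.44 and 2.96 FPKM) were not called. Should these genes be near-identical copies, reads could have been divided among them by the counting, and their single values are uncertain in that respect.

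The genes next to the members were not chosen by the rule, and their calls can be counted. For the 69 members on numbered chromosomes there were 136 listed neighbours, of which 76 averaged 1 FPKM or more and were tested with limma on log2(FPKM + 1). A gene was called at a Benjamini-Hochberg adjusted p below 0.05 and a difference of at least 1 on that scale. In Granny Smith 13 of the 76, or 17.1%, were called higher, against 9.34% of all 20993 genes tested. Lower calls were made for 4 of the 76, or 5.26%, against 12% of all genes. The other 59 were not called. The difference in Granny Smith minus Jonagold had a median of 0.12 over the neighbours (quartiles -0.25 and 0.65), and the median over all tested genes was -0.00.

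The higher share of neighbours depended in part on the scaling of the libraries. With the FPKM of each library brought to an equal sum, which moved the median of all genes by 0.35 on the log2 scale, 17 of 76 neighbours (22.4%) were called higher, against 16.3% of all genes tested. The excess of neighbours over all genes was thus smaller on that scale, and no test of it was made. With 3 libraries per variety, the p-values measure the spread between these pools of fruits.

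Some neighbours were themselves abundant. MD12G1199100, next to the member MD12G1199200, had 1629, 1777 and 1267 FPKM in Granny Smith and 336, 374 and 412 FPKM in Jonagold, a log2 difference of 2.05 (limma, adjusted p = 3.96e-05). On the other side of the same member, MD12G1199300 was lower in Granny Smith, with 85.8, 42.4 and 44.6 FPKM against 173, 263 and 320 FPKM (log2 difference -2.14, limma, adjusted p = 0.000616). The member between them had 63.3, 113 and 120 FPKM against 4.26, 17.1 and 13.1 FPKM. In this row of 3 listed genes the first 2 were thus higher and the last was lower in Granny Smith.

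MD04G1225100, next to MD04G1225000, had 107, 97.4 and 82.7 FPKM in Granny Smith and 20.8, 24.2 and 23.1 FPKM in Jonagold (log2 difference 2.02, limma, adjusted p = 7.69e-06). MD14G1062500, next to MD14G1062600, had 99.2, 87.9 and 72.8 FPKM against 18.1, 24.9 and 13.9 FPKM (2.16, limma, adjusted p = 6.87e-05). Both had a ratio of means under 5 and so were abundant genes that missed the rule. MD17G1130100, next to the steep and abundant MD17G1130000, had 31.2, 39.9 and 39.5 FPKM against 8.45, 1.48 and 2.92 FPKM (3.06, limma, adjusted p = 0.000468). Jonagold-1 was the highest Jonagold library there, as it was in the member beside it and in 56.2% of the other abundant genes.

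The largest differences among the neighbours were those of MD17G1085200 (3.95, limma, adjusted p = 6.10e-05), MD16G1009000 (3.56, adjusted p = 0.00133) and MD15G1415600 (3.28, adjusted p = 1.64e-06). MD16G1009000 had 4.63, 10.2 and 37.5 FPKM in Granny Smith, and Granny Smith-1 was its lowest Granny Smith library, as in its neighbour MD16G1009100. MD11G1109300, beside the group on chromosome 11, had 9.55, 22.7 and 12.3 FPKM against 1.25, 2.55 and 2.53 FPKM (2.29, adjusted p = 0.000438). The other 5 neighbours called higher were MD09G1126900, MD05G1205900, MD05G1230400, MD03G1094800 and MD17G1180700, with differences between 1.31 and 1.81. MD10G1062200, beside the abundant MD10G1062300, was called lower in Granny Smith, with 9.58, 6.61 and 7.43 FPKM against 19.6, 30.8 and 25.8 FPKM. MD06G1084600 and MD16G1058600 were the others called lower.

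**Figure D5:**
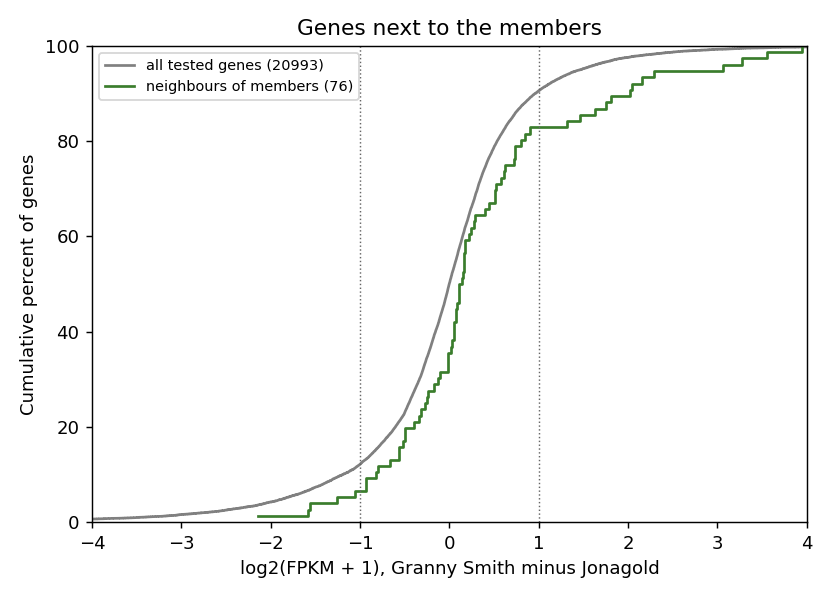
Cumulative percent of genes by the difference in log2(FPKM + 1), Granny Smith minus Jonagold, for the 76 tested neighbours of members (green) and all 20993 tested genes (grey), with dotted lines at a difference of 1 in either direction. The neighbours' median is 0.12, that of all genes is -0.00, and 13 neighbours were called higher in Granny Smith.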

How the data were processed

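Pulp RNA of 3 Granny Smith and 3 Jonagold libraries was sequenced by the authors, who deposited 1 table of FPKM values. Per the study's methods, reads were aligned to the GDDH13 apple genome and FPKM computed with Cufflinks. The submitters' processing notes instead name Bowtie 0.12.2 and the mouse builds mm8 and mm9, and this difference was not resolved. Groups were taken from the labels.

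Reads were recovered from the steps between FPKM values as the smallest whole numbers within 0.002 for each of the 34279 genes above 0. Gene lengths followed, with 1 base as their finest spacing, and were whole within 0.01 for 100% of the 14303 genes with over 50 reads in every library. Among these 14303 genes, the reads of 97 were multiplied by 2 to 6 to give a whole length. The same step was applied to the other genes, where it was not counted. Lengths and reads of genes with few reads are less sure. The library totals implied by the FPKM were 111.8% to 119.2% of the recovered reads in Granny Smith and 88.8% to 91.4% in Jonagold, so 1 read weighs more in Jonagold. Members were chosen on the mean deposited FPKM. Limma 3.58.1 (R 4.3.3, trend) was fitted to log2(FPKM + 1) for 20993 genes that averaged 1 FPKM or more, without the replicate number. It was used for calls on neighbouring genes. No count test was made, and scripts were tested on simulated data.

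The members and lists were chosen with earlier results of these data known. Values in every library were given for the 10 most abundant members, the 5 largest and 5 smallest ratios, the 3 widest spreads per variety, genes at the thresholds, runs of neighbouring members and dropped named genes. Other genes named, including all neighbours, the remaining ratios of 100 or more, and the genes deviating in 1 library, were chosen after their values were seen. Alternatives covered scaling, thresholds, pseudocount and each library left out. No sequences of these genes were used here.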

Additional observations from a re-analysis of the deposited data

How the results depend on the processing

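The number of members was 107 with equal FPKM totals, 129 with a minimum of 25 FPKM, 38 with a minimum of 100 FPKM, 35 with a ratio of 10, and 44 when the lowest Granny Smith library had to be at least 5 times the highest Jonagold library. With each library's own sum of recovered reads as its total, chosen after seeing the data, it was 103, and all 71 members were among them. Leaving out 1 library gave 67 to 76 members. The Granny Smith share was 3.45% in recovered reads, 2.87% without the highest member and 5.15% without the members over 2 times apart in Granny Smith, the last chosen after seeing the data. The Jonagold share was 0.168% in recovered reads and 0.171% without the highest member. The median ratio of the 71 members was 13.0 with equal FPKM totals, 12.6 with own read totals and 11.03 without Jonagold-3. With the 2 nearest genes on each side, 22 of 146 neighbours (15.1%) were called higher, against 9.34% of all genes tested. Other settings gave 12 to 17, of 75, 76 or 104 neighbours tested. Their shares ran from 12.5% to 22.4%, and those of all genes tested from 6.16% to 16.3%. With own read totals the shares were 21.1% and 15.4%, so the gap moved with the setting.

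The replicate block left the count of neighbours called higher at 13 (17.1%), against 9.37% of all genes tested. Deviations of same-numbered libraries correlated at 0.16, 0.28 and -0.03, and those of unlike-numbered libraries at values from -0.25 to 0.106. These values do not settle whether the numbers mark pairs, and the main fit left the replicate number out. Ratios at few Jonagold reads are limited by counting and by the spread between libraries, and levels of near-identical copies by how reads were assigned.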
